A study of Mus musculus with 8 samples.

Results

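The mRNAs described here encode the subunits of the mitochondrial respiratory chain and ATP synthase. Members were all named genes whose symbol began with Nduf followed by a, b, c, s or v and a number, or with Uqcr, Cox4 to Cox8 or Atp5, or was Sdha to Sdhd, and the protein-coding genes of the mitochondrial genome (mt-Nd, mt-Co, mt-Cytb and mt-Atp). Of 101 matching names, 4 with the pseudogene ending -ps were left out, which gave 97 members of 45556 named genes. By their names, 84 were nuclear, with 37 in complex I, 4 in complex II, 8 in complex III, 18 in complex IV and 17 in complex V. The other 13 were encoded by mitochondrial DNA, with 7 in complex I, 1 in complex III, 3 in complex IV and 2 in complex V. After the filter on low counts 89 members could be tested, 76 nuclear and all 13 mitochondrial.

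The samples were cultures of B16F10, a mouse melanoma cell line from the C57BL/6 strain. Cells carrying a short hairpin RNA against Drg2 (shDRG2), which encodes a GTP-binding protein, or the empty hairpin vector pLKO were given 5 ng/ml of interferon-gamma (IFN-γ), over 24 h, or were left without it. The 4 groups were shDRG2 with IFN-γ, pLKO with IFN-γ, shDRG2 without it and pLKO without it, with 2 libraries each and 8 in all. Each line stood once, its control carried a vector and no other hairpin, and the labels do not say whether replicates were separate cultures, so p-values measure the spread between these libraries, which may be technical. The comparisons asked how IFN-γ and the Drg2 hairpin altered these transcripts, and whether the responses of the 2 lines differed.

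The respiratory chain passes electrons from NADH through complex I, and from succinate through complex II, to ubiquinone, then through complex III and cytochrome c to complex IV, where oxygen is reduced. Complexes I, III and IV pump protons, and complex V, the ATP synthase, uses the gradient to make ATP. Complexes I, III, IV and V are built from subunits of both genomes, while complex II is wholly nuclear. The mitochondrial mRNAs are cut from long transcripts of either strand of the circular genome, so their levels depend on processing and decay as well as on transcription. Of the 13, mt-Nd6 lies on the light strand.

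Library totals ran from 25422758 to 36654519 counts, and levels are given as CPM, counts relative to a fixed library total, scaled by trimmed mean of M values (TMM) factors. Drg2 was at 6.46 to 9.34 CPM in shDRG2 libraries and at 64.3 to 76.3 CPM in pLKO libraries. The IFN-γ marker genes Irf1, Cd274, Gbp2 and B2m rose with IFN-γ. The 7 melanocyte markers summed to 9621 to 14944 CPM. Of the markers of other cells, the 7 immune markers summed to 0.465 to 1.298 CPM, with Cd3e, Adgre1 and Itgam at 0, the 5 epithelial markers to at most 0.657 CPM and the 5 striated muscle markers to at most 0.366 CPM, while the 7 fibroblast markers reached 29.8 CPM and the 5 endothelial markers 5.97 CPM. The untreated pLKO replicate 2 stood apart from its partner in mitochondrial transcripts, with 4.32% against 5.14% of counts from the 13 mRNAs.

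Levels of different genes were compared per kilobase of transcript, averaged over all 8 libraries. Mitochondrial mRNAs stood far above nuclear ones: mt-Cytb, the cytochrome b of complex III, was at 6969 CPM per kb and mt-Co1, the catalytic subunit of complex IV, at 6868 CPM per kb. mt-Atp6, the proton channel subunit of complex V, was at 6665 CPM per kb, and mt-Nd1 led complex I with 5342 CPM per kb. Among nuclear members the highest in each complex was Atp5b, the catalytic subunit of ATP synthase, with 1069 CPM per kb, Cox5b with 643 in complex IV, Sdhb with 416 in complex II, Ndufa4 with 330 in complex I and Uqcrh with 296 in complex III. The Uqcrh value was the same as that of Uqcrq, 296 CPM per kb, to 3 digits. Ndufa4 counts here under complex I by its name, although the protein is known as a subunit of complex IV.

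Several complex IV subunits exist as tissue isoforms, and these cells held the ubiquitous member of each pair. Cox4i1 averaged 315 CPM over the 8 libraries while Cox4i2, an isoform of lung and of low oxygen, had 0 counts. Cox6a1, Cox6b1 and Cox7a2 were all above 120 CPM in every library, while the muscle isoforms Cox6a2 and Cox7a1 had 5 and 3 counts over all libraries and Cox6b2 had none. Cox7b, Cox8a and Ndufa4 were also well expressed, whereas Cox7b2, Cox8b and Cox8c had 0 counts and Ndufa4l2 had 5 counts in all. These 8 low members were not tested. The 3 genes for the c subunit of ATP synthase, Atp5g1, Atp5g2 and Atp5g3, were all expressed, at means of 107, 112 and 391 CPM.

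**Figure D1:**
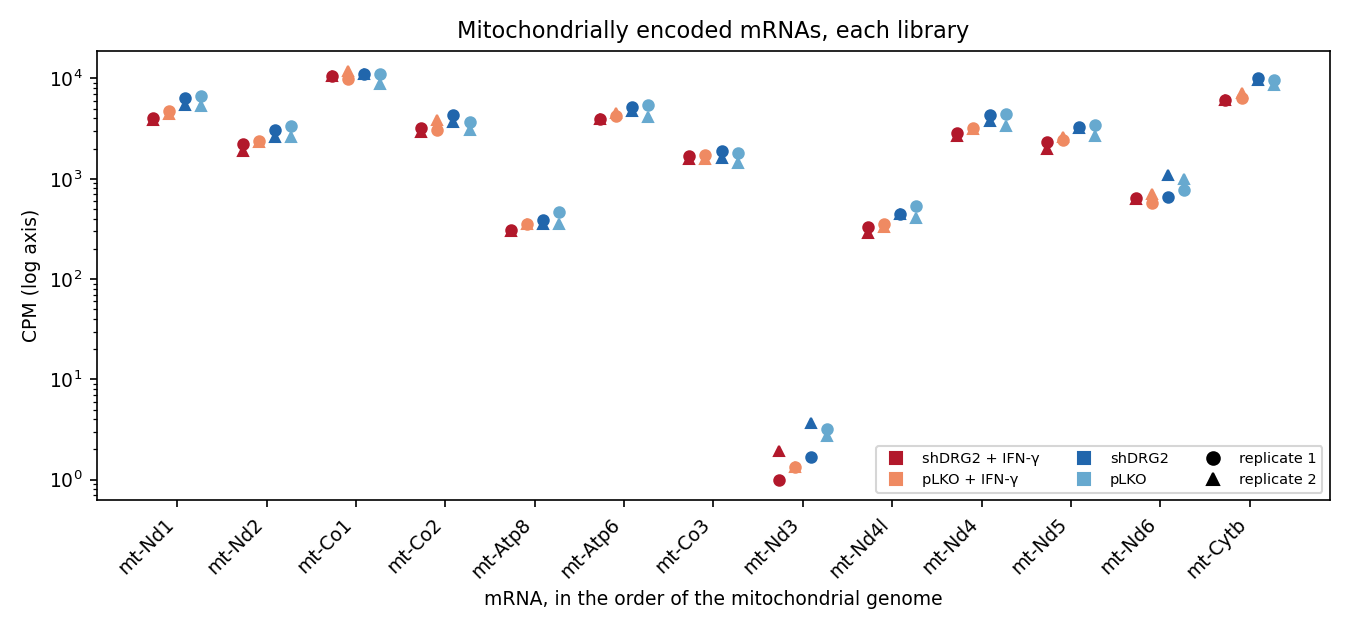
Level of the 13 mitochondrially encoded mRNAs in each library, in CPM on a log axis, with genes in the order of the mitochondrial genome, colours for the 4 groups and symbols for the replicates. For mt-Cytb the 4 IFN-γ libraries, at 6074 to 7232 CPM, all sit below the 4 untreated ones, at 8514 to 10079 CPM, while for mt-Co1 the groups overlap and mt-Nd3 lies near 1 to 4 CPM.

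With IFN-γ, averaged over both lines, 10 of the 13 mitochondrial mRNAs fell and none rose, against 44.1% of all 13500 genes called in either direction and 21.6% called lower. All 7 complex I mRNAs, mt-Cytb and both ATP synthase mRNAs fell, while the 3 complex IV mRNAs did not pass the test. The median log2 fold change was -0.41 for the 13 mRNAs, -0.02 for the 76 nuclear members and 0.00 for all genes. Calls are from edgeR's quasi-likelihood test, adjusted over all 13500 genes at 0.05 (Benjamini-Hochberg). In bulk RNA, fewer cells holding a transcript and less of it per cell cannot be told apart.

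The change was clearest for mt-Cytb (ENSMUSG00000064370.1, mitochondrial genome 14145 to 15288 in GRCm38, plus strand). It was at 6161 and 6074 CPM in shDRG2 cells with IFN-γ and 6455 and 7232 CPM in pLKO cells with IFN-γ, against 10079 and 9684 CPM in untreated shDRG2 cells and 9584 and 8514 CPM in untreated pLKO cells. All 4 treated libraries were below all 4 untreated ones. That was 1.46-fold lower, a log2 fold change of -0.55 (SE 0.07, edgeR adjusted p = 9.38e-05).

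mt-Nd1 (ENSMUSG00000064341.1, mitochondrial genome 2751 to 3707, plus strand) encodes a core membrane subunit of complex I at the quinone site. It was at 4049 and 3875 CPM in shDRG2 and 4777 and 4415 CPM in pLKO cells with IFN-γ, against 6351 and 5424 CPM in untreated shDRG2 and 6751 and 5259 CPM in untreated pLKO cells. The treated and untreated libraries did not overlap. The fold change was -0.48 on the log2 scale (SE 0.09, adjusted p = 0.00146), or 1.39-fold lower.

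The other core membrane subunits of complex I moved by like amounts. mt-Nd2, mt-Nd4 and mt-Nd5, which carry proton channels, fell by 0.41, 0.41 and 0.43 on the log2 scale, and mt-Nd4l, a small subunit whose mRNA is joined to that of mt-Nd4, fell by 0.49 (edgeR adjusted p between 0.00105 and 0.00458). In each of these 4 the highest treated library was below the lowest untreated library, in the same data that gave the calls. mt-Nd6, from the light strand, was at 638 and 628 CPM in shDRG2 and 574 and 712 CPM in pLKO cells with IFN-γ, against 662 and 1095 CPM in untreated shDRG2 and 769 and 997 CPM in untreated pLKO cells. Its replicates were spread more widely and the groups overlapped, with a log2 fold change of -0.47 (SE 0.15, adjusted p = 0.0253). That call was lost with DESeq2 (adjusted p = 0.0695) and without 5 of the 8 libraries left out in turn.

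The smaller falls were those of complex V. mt-Atp6 was at 3931 and 3984 CPM in shDRG2 and 4270 and 4485 CPM in pLKO cells with IFN-γ, against 5225 and 4794 CPM in untreated shDRG2 and 5463 and 4156 CPM in untreated pLKO cells, so the untreated pLKO replicate 2 lay among the treated libraries. Its log2 fold change was -0.24 (SE 0.09, edgeR adjusted p = 0.0444). mt-Atp8, which shares 43 bases with mt-Atp6, also fell by 0.24 (adjusted p = 0.0295). The mt-Atp6 call was lost without 7 of the 8 libraries in turn, and the mt-Atp8 call without 6.

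The complex IV mRNAs gave no call in the main fit, averaged over lines or within either line. Without the filter on low counts, 11 mitochondrial mRNAs were called lower averaged over lines and 11 in shDRG2 cells. Each of these sets must include complex IV. mt-Co1 was at 10622 and 10566 CPM in shDRG2 and 9936 and 11824 CPM in pLKO cells with IFN-γ, against 11109 and 10963 CPM in untreated shDRG2 and 11144 and 8722 CPM in untreated pLKO cells. The groups overlapped fully, with a log2 fold change of 0.04 (95% interval -0.16 to 0.23). mt-Co2 had -0.18 (interval -0.39 to 0.04) and mt-Co3 -0.04 (interval -0.23 to 0.15), so falls of the size seen for mt-Cytb lie outside all 3 intervals. In shDRG2 cells mt-Co2 was at 3182 and 2944 CPM with IFN-γ, against 4290 and 3690 CPM without it, with no overlap and a log2 fold change of -0.38 (SE 0.14, edgeR adjusted p = 0.0585), while in pLKO cells its value was 0.03. The sign of mt-Co1 turned with upper-quartile scaling, to -0.0043.

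**Figure D2:**
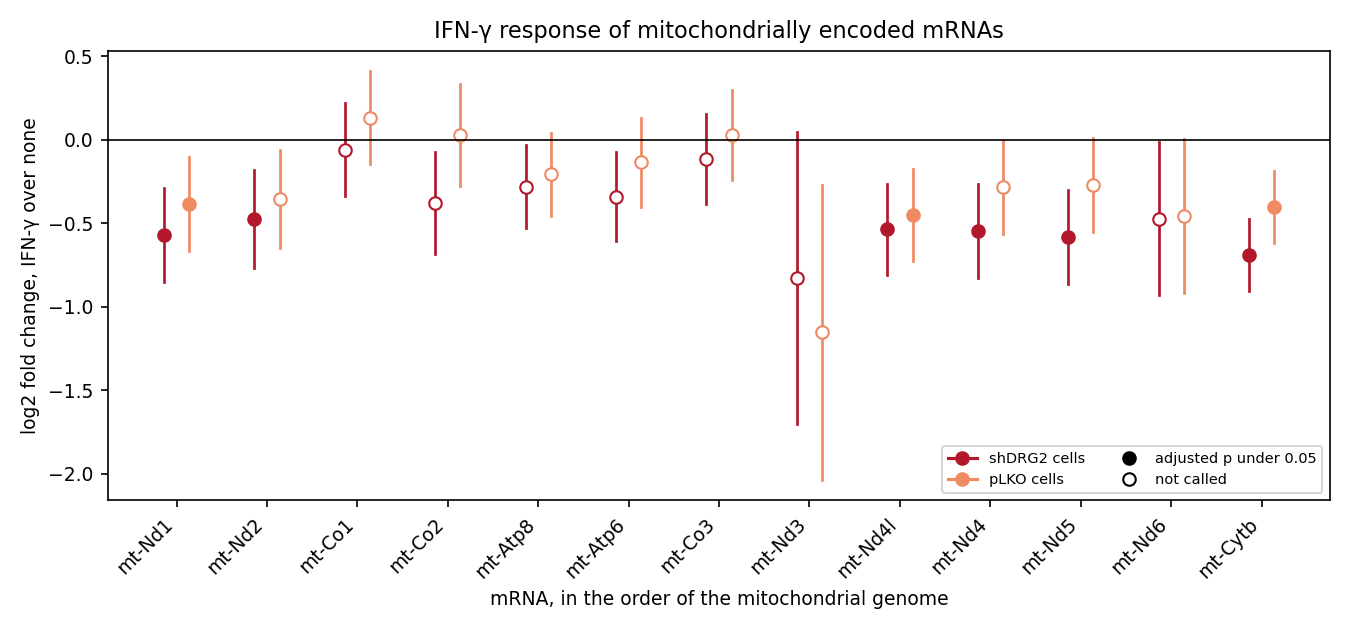
Log2 fold change of IFN-γ over none for the 13 mitochondrially encoded mRNAs in shDRG2 and pLKO cells, with 95% intervals and filled points for edgeR adjusted p under 0.05. In shDRG2 cells all 13 values are below 0 and 6 are called, and in pLKO cells 10 are below 0 and 3 are called, with mt-Co1, mt-Co2 and mt-Co3 the 3 above it.

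The level of mt-Nd3, and its calls within each line, depended on how a near copy was treated. The gene was at 0.999 and 1.94 CPM in shDRG2 and 1.33 and 1.34 CPM in pLKO cells with IFN-γ, against 1.68 and 3.68 CPM in untreated shDRG2 and 3.21 and 2.75 CPM in untreated pLKO cells. Its mean was 6.08 CPM per kb, against 5342 CPM per kb for mt-Nd1. A nuclear pseudogene of it on chromosome 1, Gm28438, had a mean of 160 CPM. The pair share 345 aligned bases with 1 difference, T3C, where the base of mt-Nd3 comes first and positions are counted from its first base. The first 33 bases of both, from GENCODE M21 transcripts on GRCm38, are shown with that base in capitals because nothing else in the alignment separates the genes. mt-Nd3 lies at chrM:9459-9806 on the plus strand and Gm28438 at chr1:24612775-24613119 on the minus strand.
mt-Nd3: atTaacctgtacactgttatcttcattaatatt
Gm28438: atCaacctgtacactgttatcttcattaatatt

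When counts of near copies were added to their member, an alternative chosen after seeing the data, mt-Nd3 stood at 124 and 119 CPM in shDRG2 and 153 and 136 CPM in pLKO cells with IFN-γ, against 194 and 167 CPM in untreated shDRG2 and 222 and 178 CPM in untreated pLKO cells. The groups then no longer overlapped. Its log2 fold change was -0.52 (edgeR adjusted p = 0.000469), close to those of the other complex I mRNAs, against -0.99 (SE 0.28, adjusted p = 0.0151) as deposited. Within lines it was not called as deposited (adjusted p = 0.141 in shDRG2 and 0.0535 in pLKO cells) and was called with copies added (0.00369 and 0.0119). The estimate as deposited rested on few counts and lost its call without shDRG2 IFN-γ replicate 1 or untreated shDRG2 replicate 2. Of the other 12 mitochondrial mRNAs, mt-Co2 and mt-Co3 had copies with over 10% of their own counts, at 18.4% and 15.95%. With copies added, 9 of 13 were called lower, mt-Atp6 being the call lost (adjusted p = 0.0529).

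In shDRG2 cells taken alone, IFN-γ lowered 6 mitochondrial mRNAs, against 31.4% of all genes called in either direction and 15.2% called lower. These were mt-Cytb (-0.69), mt-Nd5, mt-Nd1, mt-Nd4, mt-Nd4l and mt-Nd2 (-0.47). In pLKO cells alone, 3 fell, against 28.1% of all genes called and 12.7% called lower: mt-Nd4l (-0.45), mt-Cytb (-0.40) and mt-Nd1 (-0.39). Over 10038 genes, deviations of same-numbered replicates correlated at 0.132 to 0.568. The share of the mitochondrial mRNAs did not follow this, rising from replicate 1 to 2 in pLKO with IFN-γ and falling in the other groups. In the blocked fit by replicate the counts were 10 in shDRG2 and 7 in pLKO cells. Without the filter on low counts they were 11 and 8, and DESeq2 gave 9 and 5. The shares of all genes given here are those of the main fit only.

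Single libraries weighed on these within-line counts. In shDRG2 cells 1 of the 13 was called without shDRG2 IFN-γ replicate 2, that one being mt-Cytb, and in pLKO cells none was called without untreated pLKO replicate 1, while 7 were called without untreated pLKO replicate 2. The counts in pLKO cells were 1 without either of the pLKO IFN-γ libraries and 5 without either of the untreated shDRG2 libraries. Averaged over both lines the count was 6 without shDRG2 IFN-γ replicate 1 and 7 to 9 without any other library. The falls of mt-Cytb, mt-Nd1, mt-Nd2, mt-Nd4, mt-Nd4l and mt-Nd5 averaged over lines kept their call in every alternative run.

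**Figure D3:**
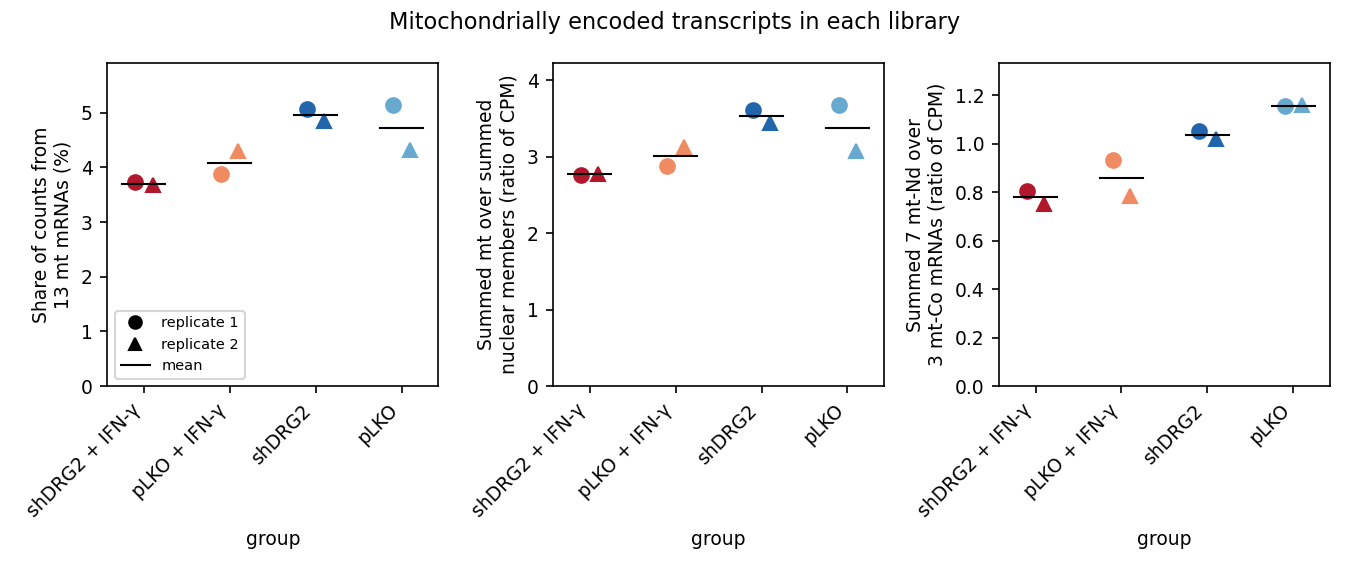
Share of all counts from the 13 mitochondrial mRNAs in percent, ratio of their summed CPM to that of the nuclear members, and ratio of the 7 mt-Nd to the 3 mt-Co mRNAs, for each library, with a line at the mean of each group. The share of untreated pLKO replicate 2, 4.32%, is close to that of pLKO with IFN-γ replicate 2, 4.30%, while the ratio of mt-Nd to mt-Co is below 0.95 in all 4 IFN-γ libraries and above 1.0 in all 4 untreated ones.

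Summed over the 13 mRNAs, mitochondrial transcripts took 3.73% and 3.68% of counts in shDRG2 and 3.87% and 4.30% in pLKO cells with IFN-γ, against 5.06% and 4.85% in untreated shDRG2 and 5.14% and 4.32% in untreated pLKO cells. By this unscaled share all treated libraries were below all untreated ones, although pLKO replicate 2 differed little between treatments. In TMM-scaled CPM the sums overlapped, with pLKO replicate 2 at 42901 CPM with IFN-γ and 41527 CPM without it. The ratio of summed mitochondrial to summed nuclear members averaged 2.77 ± 0.01 in shDRG2 and 3.002 ± 0.17 in pLKO cells with IFN-γ, against 3.53 ± 0.12 in untreated shDRG2 and 3.37 ± 0.43 in untreated pLKO cells (SD, n = 2 each). The untreated pLKO replicate 2, at 3.07, lay below pLKO with IFN-γ replicate 2, at 3.13. The summed nuclear members changed little in TMM-scaled CPM, at 13249 to 13879 CPM with IFN-γ and 13519 to 14173 CPM without it. As an unscaled share of counts they also lay lower, at 1.32% to 1.38% with IFN-γ and 1.40% to 1.41% without it, with no overlap.

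Within the mitochondrial transcripts, the balance between complexes differed with treatment. The ratio of the 7 mt-Nd mRNAs to the 3 mt-Co mRNAs was 0.804 and 0.752 in shDRG2 and 0.933 and 0.785 in pLKO cells with IFN-γ, against 1.05 and 1.02 in untreated shDRG2 and 1.16 and 1.16 in untreated pLKO cells. The ratio of mt-Cytb to mt-Co1 was 0.580 and 0.575 in shDRG2 and 0.650 and 0.612 in pLKO cells with IFN-γ, against 0.907 and 0.883 in untreated shDRG2 and 0.860 and 0.976 in untreated pLKO cells. Neither ratio overlapped between treated and untreated libraries, and neither depends on library scaling. The mitochondrial ribosomal RNA mt-Rnr1 rose by 0.18 on the log2 scale (SE 0.06, edgeR adjusted p = 0.0300), while the other one, mt-Rnr2, had -0.21 and was not called (SE 0.14, adjusted p = 0.272).

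Other measures moved with IFN-γ in the same libraries. Of the 7 melanocyte markers 6 fell, and the sum of the 7 was 9621 to 10124 CPM in shDRG2 and 10961 to 11057 CPM in pLKO cells with IFN-γ, against 13870 to 14944 CPM in untreated shDRG2 and 12911 to 13026 CPM in untreated pLKO cells. The 7 fibroblast markers summed to 11.3 to 13.7 CPM with IFN-γ and 26.6 to 29.8 CPM without it, and 2 of the 4 tested fell. The 5 endothelial markers summed to 0.457 to 0.6996 CPM with IFN-γ and 1.497 to 5.97 CPM without it, and both of those tested fell. Their part in the mitochondrial result was not tested.

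Among the 76 tested nuclear members, 17 were called with IFN-γ averaged over both lines, 6 higher and 11 lower, or 22.4% against 44.1% of all genes, of which 22.5% were higher and 21.6% lower. With other scaling the fallers gained: 6 higher and 18 lower by library size alone, and 4 higher and 21 lower with upper-quartile factors. With the replicate block 30 were called, 9 higher and 21 lower. The 44.1% of all genes is from the fit without the block and is no measure for those 30. By complex, as assigned from the names, the main counts were 3 higher and 5 lower of 36 in complex I. They were 1 higher of 4 in complex II and 2 lower of 8 in complex III. Complex IV had 1 higher and 2 lower of 11, and complex V 1 higher and 2 lower of 17. The riser under complex V was Atp5sl, known in humans as a complex I assembly factor. The fallers under complex I include Ndufa4, known as a complex IV subunit. Without shDRG2 IFN-γ replicate 2, or without untreated pLKO replicate 2, the total was 10.

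Among the nuclear rises were subunits of both arms of complex I. Ndufs3 (ENSMUSG00000005510.9, chromosome 2, 90894634 to 90904827 in GRCm38, minus strand), a core subunit of the matrix arm, was at 76.8 and 72.1 CPM in shDRG2 and 77.9 and 76.2 CPM in pLKO cells with IFN-γ, against 60.9 and 57.2 CPM in untreated shDRG2 and 60.2 and 59.7 CPM in untreated pLKO cells. Treated and untreated libraries did not overlap. The level was 1.27-fold higher, a log2 fold change of 0.35 (SE 0.05, edgeR adjusted p = 0.00035).

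Ndufc1 (ENSMUSG00000037152.11, chromosome 3, 51404677 to 51408988, minus strand), an accessory subunit of the membrane arm, was at 105 and 101 CPM in shDRG2 and 80.1 and 95.7 CPM in pLKO cells with IFN-γ, against 73.0 and 81.1 CPM in untreated shDRG2 and 63.5 and 67.7 CPM in untreated pLKO cells. It was 1.34-fold higher with IFN-γ (0.42, SE 0.07, edgeR adjusted p = 0.000617). In each line both treated libraries were above both untreated ones, while across lines pLKO IFN-γ replicate 1 lay just under untreated shDRG2 replicate 2. Atp5sl, named for its likeness to an ATP synthase subunit and known in humans as an assembly factor of the complex I membrane arm, rose by 0.49 (adjusted p = 0.00163) at 8.60 to 14.4 CPM.

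The rises of Sdhb and Cox5a were smaller. Sdhb, the iron-sulfur subunit of complex II, was at 503 and 507 CPM in shDRG2 and 505 and 492 CPM in pLKO cells with IFN-γ, against 489 and 456 CPM in untreated shDRG2 and 437 and 416 CPM in untreated pLKO cells (log2 fold change 0.16, edgeR adjusted p = 0.0303). Cox5a, a nuclear subunit on the matrix side of complex IV, changed by 0.19 (adjusted p = 0.0325). Both calls were lost with upper-quartile scaling (adjusted p = 0.0691 and 0.0610) and without several of the libraries.

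**Figure D4:**
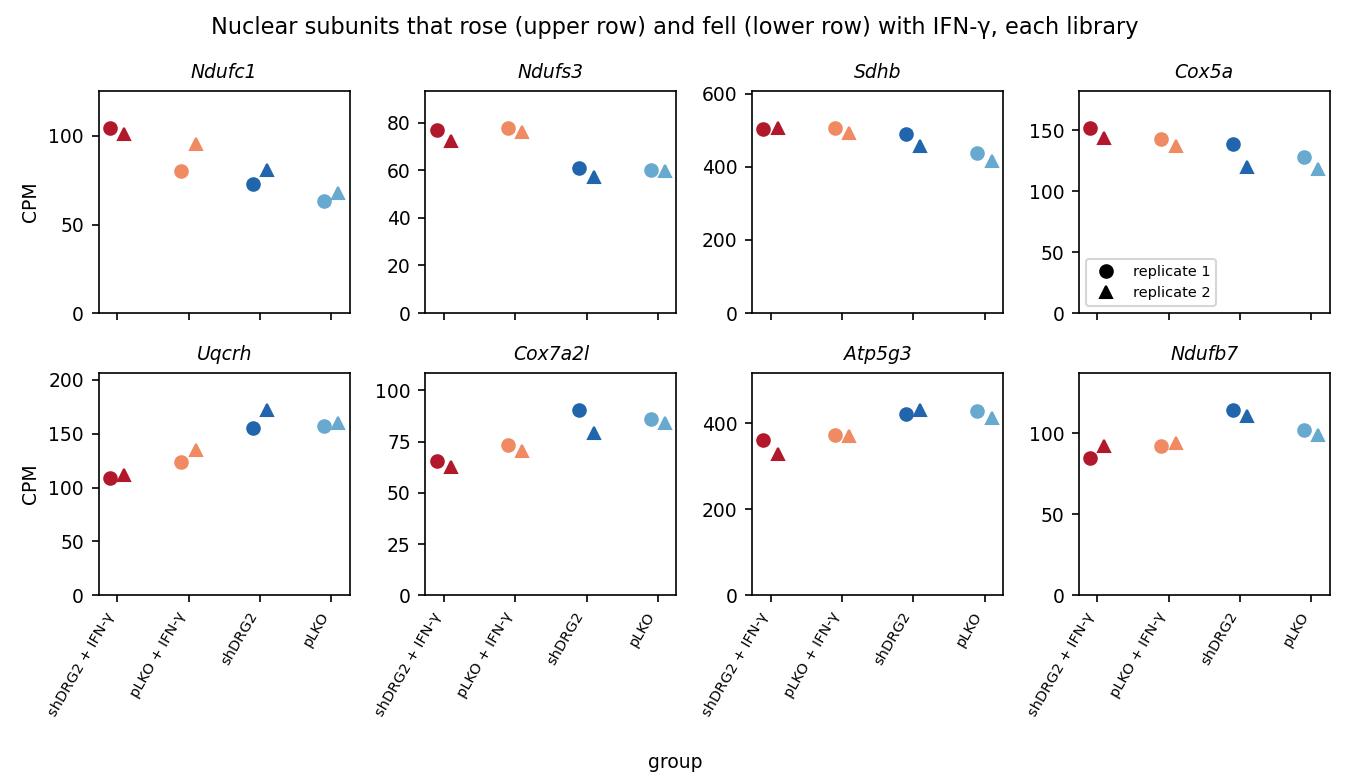
CPM of 8 nuclear members in each library, with groups on the horizontal axis, axes from 0 and symbols for the replicates. Ndufs3 and Sdhb are higher in all 4 IFN-γ libraries than in all 4 untreated ones, Ndufc1 and Cox5a overlap narrowly between lines, and Uqcrh, Cox7a2l, Atp5g3 and Ndufb7 are lower in all 4.

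The largest nuclear fall was that of Uqcrh (ENSMUSG00000063882.12, chromosome 4, 116066965 to 116075071, minus strand), the hinge protein that holds cytochrome c1 in complex III. It was at 109 and 112 CPM in shDRG2 and 124 and 135 CPM in pLKO cells with IFN-γ, against 155 and 172 CPM in untreated shDRG2 and 157 and 160 CPM in untreated pLKO cells. Its log2 fold change was -0.43 (SE 0.06, edgeR adjusted p = 0.000145), or 1.35-fold lower. The other 7 complex III members lay between -0.17 and 0.09, and of these Uqcr10, a small subunit, fell by 0.17.

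Cox7a2l (ENSMUSG00000024248.14, chromosome 17, 83501918 to 83517330, minus strand) was at 65.7 and 62.8 CPM in shDRG2 and 73.2 and 70.6 CPM in pLKO cells with IFN-γ, against 90.5 and 79.0 CPM in untreated shDRG2 and 85.9 and 83.9 CPM in untreated pLKO cells. It was 1.25-fold lower (-0.32, SE 0.06, edgeR adjusted p = 0.00128), while its paralog Cox7a2 had -0.02 and no call. Atp5g3, the most abundant of the genes for the c subunit, was 1.18-fold lower (-0.24, adjusted p = 0.00437), against -0.09 for Atp5g1 and 0.02 for Atp5g2, neither called. Differences between the 3 genes were not tested.

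Of the complex I fallers, Ndufb7, an accessory subunit of the membrane arm, was at 85.0 and 92.3 CPM in shDRG2 and 92.3 and 94.4 CPM in pLKO cells with IFN-γ, against 115 and 111 CPM in untreated shDRG2 and 102 and 99.2 CPM in untreated pLKO cells (-0.23, edgeR adjusted p = 0.00509). Ndufa4 fell by 0.23 and Cox8a, a small complex IV subunit, by 0.18. The other fallers, Atp5d (-0.24), Ndufa10 (-0.19), Ndufb8 (-0.17), Ndufb10 (-0.16) and Uqcr10 (-0.17), lay outside the rule for naming genes and are named after their values were seen. Treated and untreated libraries did not overlap for any of the 11 fallers. These were called from the same libraries, and overlap was not counted over all genes, so this adds nothing to the calls. The main calls of Atp5sl, Ndufc1, Ndufs3, Uqcrh, Cox7a2l, Atp5g3 and Ndufb7 held in every alternative run, and those of Sdhb, Cox5a, Ndufa4, Cox8a, Atp5d, Ndufa10, Ndufb8, Ndufb10 and Uqcr10 did not.

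In shDRG2 cells alone, 18.4% of tested nuclear members were called with IFN-γ against 31.4% of all genes. Of these 4 rose and 10 fell, or 4 and 16 with upper-quartile scaling and 5 and 20 with the replicate block. Atp5sl, Ndufc1 and Ndufs3 were among the risers. The fallers were led by Uqcrh (-0.57), Atp5k, the e subunit of ATP synthase (-0.45), Cox7a2l (-0.40) and Ndufb7 (-0.35), and included Atp5g3, Ndufa4, Cox8a, Uqcr10, Ndufb8 and Atp5j2, the f subunit of ATP synthase. In pLKO cells alone, 7.89% were called against 28.1% of all genes. There 5 rose and 1 fell, or 3 and 3 by library size alone or with upper-quartile scaling, and 10 and 6 with the replicate block. The shares of all genes for both lines are from the main fit only. The risers included Ndufc1 (0.42), Ndufs3 (0.36), Sdhb (0.23) and Ndufs4 (0.22), an accessory subunit of the matrix arm, and Uqcrh fell (-0.29). In pLKO cells the calls of Sdhb and Ndufs4 were lost with every other scaling and without the filter, and that of Ndufs4 also with DESeq2. Those of Ndufc1 and Uqcrh were lost only without single libraries, and that of Ndufs3 held in every alternative run. The counts were 5 without shDRG2 IFN-γ replicate 1, 8 without shDRG2 IFN-γ replicate 2 and 6 without untreated shDRG2 replicate 2 in shDRG2 cells, and 3 without pLKO IFN-γ replicate 2, 2 without untreated pLKO replicate 1 and 3 without untreated pLKO replicate 2 in pLKO cells.

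No member was called for a difference between the lines in its IFN-γ response. The difference of the responses, shDRG2 minus pLKO, called 0 of 89 members, against 0.00741% of all genes, which is 1 gene, and at an unadjusted p under 0.05 there were 3 nuclear and no mitochondrial members. The 3 were Atp5j2 (-0.28), Uqcrh (-0.28) and Ndufb7 (-0.24). A share of 0.05 of unchanged genes would reach that level too, so these 3 are not read as differences. DESeq2 and the fit with the replicate block also called none. Of the 76 nuclear values 61 were negative and of the 13 mitochondrial values 12, with medians of -0.11 and -0.19 on the log2 scale, against -0.01 for all genes. All members share the same 8 libraries, so these values are not independent of each other.

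The Drg2 hairpin gave no called member in the main fit. Without the filter on low counts, 1 nuclear member was called with IFN-γ and 3 averaged over treatments. DESeq2 called 1 and 2 in the same comparisons. Comparing shDRG2 with pLKO cells, 0 of 89 were called without IFN-γ, against 1.2% of all genes (0.467% higher, 0.733% lower). With IFN-γ it was 0 against 1.67% (0.504% higher, 1.17% lower), and averaged over both treatments 0 against 5.91% (1.98% higher, 3.93% lower). Leaving out pLKO IFN-γ replicate 1 or 2 gave 1 call in the average, and leaving out untreated shDRG2 replicate 2 gave 2. At an unadjusted p under 0.05 there were 5, 6 and 8 nuclear members in these comparisons and no mitochondrial member. A share of 0.05 of unchanged genes would reach that level too, so these counts alone do not show a difference. As deposited, all 13 mitochondrial values averaged over treatments lay between -0.17 and 0.06, for example -0.02 for mt-Cytb (95% interval -0.17 to 0.13) and -0.12 for mt-Nd1 (interval -0.32 to 0.08). The nuclear values lay between -0.29 and 0.23.

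A few nuclear members were called in other fits of the hairpin comparison. Sdhc, a membrane anchor of complex II, was at 153 and 148 CPM in shDRG2 and 136 and 131 CPM in pLKO cells with IFN-γ, and at 152 and 133 CPM in shDRG2 and 124 and 116 CPM in pLKO cells without it. Cox7b, a small subunit of complex IV, was at 159 and 145 CPM in shDRG2 and 182 and 221 CPM in pLKO cells with IFN-γ, and at 137 and 168 CPM in shDRG2 and 164 and 181 CPM in pLKO cells without it. Averaged over treatments their log2 fold changes were 0.21 (edgeR adjusted p = 0.0714) and -0.29 (adjusted p = 0.0815), and those of Ndufc1 and Ndufb6 were 0.23 and -0.19 (adjusted p = 0.0869 and 0.0894). With the replicate block Ndufs4 and Sdhc were called higher without IFN-γ (0.26 and 0.25, adjusted p = 0.0463 and 0.0453), and Cox7b and Ndufb6 lower with it (-0.40 and -0.31, adjusted p = 0.0323 and 0.0359). In the blocked average over treatments Sdhc, Cox7b, Ndufc1 and Ndufb6 were called, with adjusted p-values of 0.0103, 0.0148, 0.0158 and 0.0314 in the order named, against 12.7% of all genes called in that fit. Ndufb6 shares 39.0% of its exon bases with Smim27 on the opposite strand, and the strandedness of the libraries is not stated. Sdhc and Ndufb6 are named after their values were seen.

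Assembly factors of the complexes were described from lists fixed for this work. With IFN-γ averaged over both lines, 7 of the 15 tested complex I factors rose and 1 fell. Counts in this and the other lists stand against 44.1% of all genes called in that comparison, 22.5% higher and 21.6% lower. Foxred1 (0.49), Ndufaf5 (0.49) and Ndufaf3 (0.41) led the rises, and Ndufaf2 fell (-0.31). Of the 4 complex II factors, Sdhaf2, which inserts the flavin into Sdha, rose by 0.66 and Sdhaf4 by 0.59, while Sdhaf1, which serves the iron-sulfur subunit Sdhb, fell by 0.45. Of 6 complex III factors, Lyrm7 (0.63) and Bcs1l (0.29), which act on the Rieske iron-sulfur protein, rose. Of 25 complex IV factors 4 rose, Cmc1 (0.53), the copper carrier Cox17 (0.38), Surf1 (0.37) and the heme synthesis enzyme Cox15 (0.34), and 4 fell, among them Cox20 (-0.46) and Coa3 (-0.32). None of the 5 complex V factors was called.

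Sdhaf2 gives the scale of the assembly factor changes. It was at 37.1 and 38.6 CPM in shDRG2 and 40.0 and 41.0 CPM in pLKO cells with IFN-γ, against 24.1 and 24.6 CPM in untreated shDRG2 and 25.6 and 25.02 CPM in untreated pLKO cells (SE 0.05, edgeR adjusted p = 4.89e-06). The medians were 0.14 for complex I factors, 0.32 for complex II, 0.11 for complex III, -0.01 for complex IV and -0.12 for complex V, against 0.00 for all genes. Of 17 electron carriers and ubiquinone genes, Coq10b (0.48), Pdss1 (0.37), Coq9 (0.24) and Etfdh (0.22) rose, and Gpd2, the mitochondrial glycerol phosphate dehydrogenase, fell (-0.41). Of 18 genes of the citric acid cycle and pyruvate dehydrogenase none rose and 3 fell, Idh2 (-0.48), Ogdh (-0.33) and Pdha1 (-0.18).

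Genes that copy, transcribe and degrade mitochondrial RNA went both ways with IFN-γ, with 6 of 32 higher and 5 lower and a median of 0.01, where 44.1% of all genes were called. Pnpt1, the mitochondrial polynucleotide phosphorylase that degrades RNA and is known as an interferon-stimulated gene, was at 122 and 128 CPM in shDRG2 and 106 and 123 CPM in pLKO cells with IFN-γ, against 63.8 and 73.7 CPM in untreated shDRG2 and 64.4 and 66.6 CPM in untreated pLKO cells. It rose by 0.84 (SE 0.07, edgeR adjusted p = 4.10e-06), while Supv3l1, the helicase that works with it, fell by 0.19. Tefm, a transcription elongation factor, rose by 0.61 and Tfb2m, an initiation factor, fell by 0.29. Lrpprc, which stabilises mitochondrial mRNAs, fell by 0.29 and its partner Slirp rose by 0.39, while Polg, the mitochondrial DNA polymerase, fell by 0.34. The part of these genes in the change of the mitochondrial mRNAs was not tested.

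Of 13 tested transcriptional regulators of nuclear subunits, 2 rose and 6 fell with IFN-γ, where 22.5% of all genes were called higher and 21.6% lower. Esrra, an orphan nuclear receptor, fell by 0.44 and Nrf1, nuclear respiratory factor 1, by 0.38. Gabpb2 (-0.33), Ppargc1b (-0.25), Gabpb1 (-0.20) and Gabpa (-0.16), of which the Gabp genes encode an ETS factor, also fell, and Nfe2l2 (0.31) and Myc (0.23) rose. In the comparison of shDRG2 with pLKO cells averaged over treatments, the calls in these lists were Uqcc2, a complex III factor, higher (0.23), and Pdhb, a pyruvate dehydrogenase subunit, lower (-0.34).

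Promoter windows of 250 bases before to 50 after the start were taken from RefSeq on GRCm38.p6, where 69 nuclear members matched and gave 75 windows. Both strands were searched for letters of known binding motifs, and a match is a description of the sequence. The ETS core CCGGAAG was in 21.3% of member windows against 8.86% of all 32851 windows, the YY1 motif AAGATGGC in 16% against 2.75%, the NRF1 motif in 6.67% against 0.971%, and the E-box CACGTG in 12% against 7.15%. The interferon motifs were no more frequent than in all windows, with the GAS letters TTCNNNGAA in 8% against 8.3% and the ISRE motif in 2.67%, or 2 windows, against 3.44%. Members that moved with IFN-γ shared no motif: the riser Cox5a held none of those searched, and the faller Atp5d held GAS letters. The windows shown next are examples and do not stand for all that moved. The windows of 3 members that moved with IFN-γ are shown, all on the minus strand, with motif letters in capitals: the ISRE letters and the ETS core in either orientation for Ndufs3 (chr2:90904672-90904971), YY1 for Ndufc1 (chr3:51408906-51409205) and ETS for Uqcrh (chr4:116075021-116075320).
Ndufs3: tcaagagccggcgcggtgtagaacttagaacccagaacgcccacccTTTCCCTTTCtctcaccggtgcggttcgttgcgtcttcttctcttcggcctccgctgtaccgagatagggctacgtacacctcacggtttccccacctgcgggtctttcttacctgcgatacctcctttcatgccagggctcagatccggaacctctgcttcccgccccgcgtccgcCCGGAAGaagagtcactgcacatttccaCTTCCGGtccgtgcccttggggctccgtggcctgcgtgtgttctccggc
Ndufc1: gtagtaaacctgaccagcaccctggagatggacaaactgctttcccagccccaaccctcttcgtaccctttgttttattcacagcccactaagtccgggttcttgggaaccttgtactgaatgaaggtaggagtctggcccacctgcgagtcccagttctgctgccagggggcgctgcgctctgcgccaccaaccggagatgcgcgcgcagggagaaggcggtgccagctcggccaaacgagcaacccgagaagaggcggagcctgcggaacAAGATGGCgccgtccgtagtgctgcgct
Uqcrh: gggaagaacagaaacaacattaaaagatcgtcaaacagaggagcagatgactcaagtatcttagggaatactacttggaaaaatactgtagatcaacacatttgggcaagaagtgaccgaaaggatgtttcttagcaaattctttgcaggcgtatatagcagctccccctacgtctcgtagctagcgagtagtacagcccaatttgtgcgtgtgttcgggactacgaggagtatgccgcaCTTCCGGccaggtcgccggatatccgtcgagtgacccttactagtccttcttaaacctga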

How the data were processed

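RNA sequencing of 8 B16F10 libraries in 4 groups gave expected counts per gene that the authors deposited without normalisation between libraries. STAR, Salmon 1.5.2 and mm10 are named in the submitters' processing notes; how counts were summed to genes, with which annotation and strandedness, was not given in the sources used. Of 45583 entries, 27 date-like names (0.204% to 0.212% of counts) were left out. Counts were rounded and fitted with edgeR 4.0.16 in R 4.3.3 over 13500 genes kept by filterByExpr, with TMM factors of 0.973 to 1.04 and 1 coefficient per group over all 8 libraries. The two-sided quasi-likelihood F test was adjusted by Benjamini-Hochberg over all genes at 0.05. SE and 95% intervals come from that fit. DESeq2 1.42.0, other scalings, no filter, a replicate block and leaving out each library were alternatives. For the block, replicate numbers were taken to pair the samples. Deviations of same-numbered libraries correlated at 0.132 to 0.568 in all 6 pairs of groups (10038 genes), which does not establish a pairing. The protocol names different sequencers and read lengths without saying which library was read on which. The pairing is thus an assumption, as the labels give only a number. Near copies were transcripts with at least 95% identity over 200 bases or 50% of the member (blastn 2.17.0). Per-kilobase levels used the median GENCODE M21 coding transcript. The procedure was also run on simulated counts, with libraries drawn independently, which does not test the spread between the libraries of these data. Members and lists were chosen with earlier results of these data known. Named genes were all mitochondrial members, isoform pairs, the highest per kilobase in each complex, and called members of at least 5 CPM, up to 10 by size per direction and comparison, with up to 5 per direction in each list; some genes that the rule names are not reported here.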

Additional observations from a re-analysis of the deposited data

How the results depend on the processing

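With the replicate block, the pairing being from same-numbered libraries, 2 nuclear members were called for shDRG2 against pLKO without IFN-γ, 2 with it and 4 averaged, and 16, 25 and 30 for IFN-γ in pLKO, in shDRG2 and averaged, while 7 and 10 mitochondrial members were called for IFN-γ in pLKO and in shDRG2. The block added no member in the difference of responses. Except for the blocked hairpin average, the shares of all genes given above are from the main fit and not from these alternatives. Without the filter, 1 and 3 nuclear members were called for the hairpin with IFN-γ and averaged, and 8 and 11 mitochondrial members for IFN-γ in pLKO and shDRG2. DESeq2 called 1, 2 and 5 where the first is the hairpin with IFN-γ, the second the hairpin averaged and the third the mitochondrial members in pLKO. Without each library in turn, called mitochondrial members ranged over 6 to 9 averaged, 0 to 7 in pLKO and 1 to 9 in shDRG2, and nuclear members over 10 to 18, 2 to 8 and 5 to 15, with 0 to 2 for the hairpin averaged and 0 to 0 for the other comparisons. The group mean became the value of the single library left, 3.68% to 3.73%, 3.87% to 4.30%, 4.85% to 5.06% and 4.32% to 5.14% for the share in shDRG2 with IFN-γ, pLKO with IFN-γ, shDRG2 and pLKO; 13249 to 13879, 13722 to 13726, 13838 to 14173 and 13519 to 14009 CPM for the nuclear sum; and 2.76 to 2.78, 2.88 to 3.13, 3.44 to 3.61 and 3.07 to 3.67 for the ratio. Without the most abundant member of each set, the share was 2.66%, 3.01%, 3.85% and 3.72%, the nuclear sum 11462, 11718, 12037 and 11649 CPM and the ratio 2.35, 2.59 and 3.19 in the first 3 groups, lower by construction. By library size alone the nuclear sum of pLKO with IFN-γ was 13604 CPM. Only uncalled values near 0 turned sign: in pLKO cells mt-Co2 to -0.0061 by library size and -0.0115 by upper-quartile factors (-0.15 to 0.20 without 1 library), mt-Co3 to -0.0093 and -0.0145 (-0.12 to 0.20), mt-Co1 to -0.0275 (up to 0.32) and mt-Atp6 to 0.0715 (down to -0.31); averaged, mt-Co1 to -0.0043 (-0.0382 to 0.13) and mt-Co3 to 0.0483 (down to -0.11); in shDRG2 cells mt-Co3 to 0.0031 (down to -0.22). The cause was not tested. Of 27 member calls averaged over lines 14 held in every alternative, of 9 in pLKO 2 and of 20 in shDRG2 3. Leaving out a library leaves its group with 1, assumed to vary like the others.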
